A study of Mus musculus with 6 samples.

Results

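The genes described here encode the proteins of the mitochondrial respiratory chain and ATP synthase that are made in the nucleus, together with a few of their assembly factors. They were taken as all genes whose name on the array begins with Nduf, Uqcr, Sdh followed by a letter from a to d, Atp5, or Cox followed by a digit from 4 to 8. Of 31689 genes and unnamed transcripts on the array, 90 carried such a name, and 86 of these were well above background on all 6 arrays and were kept. They comprised 36 genes of complex I, 4 of complex II, 7 of complex III, 15 of complex IV, 14 of ATP synthase, 7 assembly factors and 3 others. The rule itself uses no difference between mice, though it was set with earlier results of these data known.

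RNA came from gastric mucosa of C57BL/6J mice, freed of the muscle of the glandular stomach. The A4gnt-null mice lacked A4gnt, which encodes the enzyme that adds terminal alpha1,4-linked N-acetylglucosamine to the mucin of gastric gland cells, and the wild-type mice carried it. Each genotype was represented by 1 mouse of 5 weeks, 1 of 10 weeks and 1 of 50 weeks, each on a one-colour array of its own. Which stretch of A4gnt was removed is not given in the labels. No treatment was given in the labels for either genotype.

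Complexes I, III and IV of the inner mitochondrial membrane pass electrons from NADH to oxygen and pump protons, complex II feeds in electrons from succinate, and ATP synthase uses the proton gradient to make ATP. Most subunits are encoded in the nucleus and imported, while a small set of core subunits is encoded on mitochondrial DNA. In the stomach the acid-secreting parietal cell, whose proton pump consumes ATP, is among the cells richest in mitochondria.

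On each array between 54.8% and 59.2% of the 43020 non-control spots exceeded background by the scanner software's criterion, and 0 spots were saturated. The A4gnt probe gave a processed signal of 2.30, 2.94 and 2.11 units in the null mice of 5, 10 and 50 weeks, against 165.3, 325.4 and 264.0 in the wild-type mice, and was well above background in 0 of 3 null and 3 of 3 wild-type mice. With each null array set at its lowest signal called above background, the null level was at least 15.3-fold lower (5 weeks), at least 25.7-fold lower (10 weeks) and at least 36.4-fold lower (50 weeks). The parietal cell genes Atp4a and Atp4b and the surface cell gene Tff1 were well above background on all 6 arrays. The 3 wild-type arrays lay on 1 slide and the 3 null arrays on another, each slide scanned once, so slide and genotype cannot be told apart. The number of arrays limits the precision. Where limma gave a p-value for genotype or for 1 age against another, its error came from how the genotype difference varied between ages. That error also drew on the spread of all genes. A real change of the genotype difference with age therefore counted as error. Variation between mice of the same genotype and age was not measured. In bulk mucosa fewer cells of a type and less RNA per cell cannot be told apart.

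The upstream sequences of the kept genes were searched for the recognition letters of factors known for driving respiratory chain genes. A window of 300 bases, with 250 before and 50 from the transcription start, was held for 72 of the 86 genes in RefSeq (GRCm38.p6), and 27025 genes of the genome were searched in the same way on both strands. The palindromic letters of the Nrf1 site, in capitals in the Ndufaf4 and Atp5g2 windows, occurred in 6 of the 72 genes (8.33%), against 1.07% of all genes. The Ets letters bound by Gabpa, CCGGAAG, occurred in 19 (26.4%, against 9.93%). The letters of Yy1, AAGATGGCG, occurred in 8 (11.1%, against 1.64%), and those of the estrogen-related receptors, TCAAGGTCA, in 2 (2.78%, against 0.466%). These counts describe letters and not binding. The windows given are those of the complex IV isoform gene with the largest difference between genotypes and of 4 genes that were higher in the null mouse at all 3 ages, 5′ to 3′, with any of the 4 motifs in capitals on either strand. They lie at chr7:30183921-30184220 (plus strand) for Cox7a1, chr13:114388045-114388344 (minus strand) for Ndufs4, chr9:50603800-50604099 (minus strand) for Sdhd, chr4:24897833-24898132 (plus strand) for Ndufaf4 and chr15:102670998-102671297 (minus strand) for Atp5g2.
Cox7a1: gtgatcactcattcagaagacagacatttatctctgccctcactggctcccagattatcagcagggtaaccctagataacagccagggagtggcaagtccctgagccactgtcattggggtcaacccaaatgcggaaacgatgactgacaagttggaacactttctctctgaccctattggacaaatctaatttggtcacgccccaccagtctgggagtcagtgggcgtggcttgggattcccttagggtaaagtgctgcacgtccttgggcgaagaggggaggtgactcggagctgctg
Ndufs4: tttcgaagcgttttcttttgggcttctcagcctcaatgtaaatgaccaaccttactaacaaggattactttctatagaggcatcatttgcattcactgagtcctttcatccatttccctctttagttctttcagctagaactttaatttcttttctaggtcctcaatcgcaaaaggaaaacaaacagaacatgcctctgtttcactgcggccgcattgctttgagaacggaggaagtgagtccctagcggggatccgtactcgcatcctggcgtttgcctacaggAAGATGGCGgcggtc
Sdhd: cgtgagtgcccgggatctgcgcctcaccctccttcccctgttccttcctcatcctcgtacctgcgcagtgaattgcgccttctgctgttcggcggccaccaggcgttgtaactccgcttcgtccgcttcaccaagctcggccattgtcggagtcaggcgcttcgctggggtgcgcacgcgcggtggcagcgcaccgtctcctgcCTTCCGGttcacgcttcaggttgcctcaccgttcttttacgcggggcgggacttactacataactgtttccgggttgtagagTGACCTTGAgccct
Ndufaf4: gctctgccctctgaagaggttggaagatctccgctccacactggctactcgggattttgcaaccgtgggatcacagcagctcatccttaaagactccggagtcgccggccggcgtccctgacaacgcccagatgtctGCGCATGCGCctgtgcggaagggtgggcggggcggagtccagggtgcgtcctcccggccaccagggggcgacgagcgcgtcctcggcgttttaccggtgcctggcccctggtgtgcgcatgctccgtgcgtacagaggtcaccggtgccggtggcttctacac
Atp5g2: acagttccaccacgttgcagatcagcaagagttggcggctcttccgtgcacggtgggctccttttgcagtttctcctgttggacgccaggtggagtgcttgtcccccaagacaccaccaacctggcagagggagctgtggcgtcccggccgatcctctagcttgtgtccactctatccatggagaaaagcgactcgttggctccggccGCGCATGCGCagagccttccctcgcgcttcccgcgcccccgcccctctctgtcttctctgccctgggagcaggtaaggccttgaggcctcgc
The Ndufs4 window held the Yy1 letters, the Sdhd window the Ets and estrogen-related receptor letters, and the Ndufaf4 and Atp5g2 windows the Nrf1 letters. None of the 4 motifs was found in the window of Cox7a1. Other genes lower in the null mouse at all 3 ages did hold motifs, among them Atp5sl, Ndufs7 and Ndufa9 (Yy1) and Ndufs3 and Ndufaf1 (Ets), while some held none. Any of the 4 motifs occurred in 31 of the 72 genes (43.1%, against 12.5% of all genes). A link between motifs and the direction of a difference was not tested.

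Levels are given below as the log2 of the processed signal after subtraction of the array's log2 75th percentile, so that 1 unit is a 2-fold difference. By mean signal 62 of the 86 lay in the brightest 10% of genes. The question put to each gene was whether it differed between A4gnt-null and wild-type mucosa. At 5 weeks the median gene was 0.15 higher in the null mouse than in the wild-type mouse, with 65 genes higher and 21 lower. In the older mice the order was the other way, with a median of -0.18 at 10 weeks (13 higher and 73 lower) and -0.16 at 50 weeks (12 higher and 74 lower). Over all genes the medians lay between -0.01 and 0.01. The share of all genes lower in the null mouse was 51.5% at 5 weeks, 49.6% at 10 weeks and 50.2% at 50 weeks, and the share higher was 48.5%, 50.4% and 49.8%. Each of these sets 1 mouse against 1 mouse and has no p-value.

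These shifts were small. At 5 weeks 4 genes were higher in the null mouse by 1.5-fold or more and 0 lower (all genes: 10.6% and 12.8%). At 10 weeks 0 were higher by this much and 5 lower (10.6% and 13%), and at 50 weeks 0 were higher and 2 lower (5.35% and 11.3%). A 2-fold difference was reached by 0 genes at 5 weeks (3.55% of all genes higher and 4.85% lower), by Cox7a1 alone, lower, at 10 weeks (4.29% and 5.26%) and by Cox7a1 and Ndufa4l2, both lower, at 50 weeks (2% and 4.31%). Ndufa4l2 was dim, near the lowest signals called above background. In the plot of differences by complex, the medians of all 5 complexes and of the assembly factors lie above 0 at 5 weeks and below 0 at the later ages, subject to the scaling described next.

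**Figure D1:**
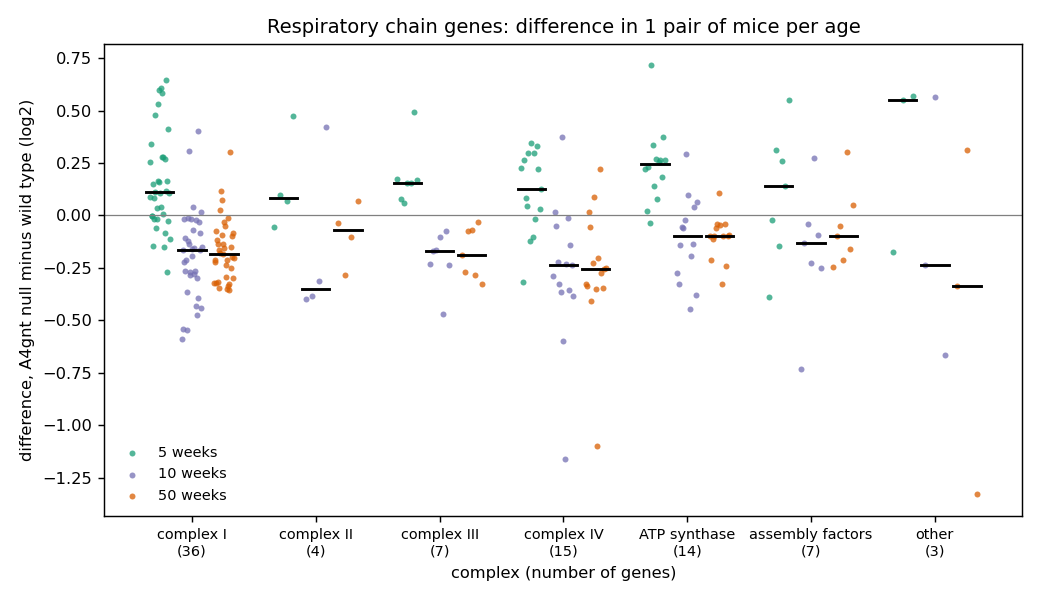
Difference between the A4gnt-null and the wild-type mouse (log2, vertical axis) for each of the 86 genes, by complex (horizontal axis, with the number of genes) and age (colour); each point is 1 gene and the black bars are medians. Medians of the complexes are above 0 at 5 weeks (below 0 under quantile normalization) and below 0 at 10 and 50 weeks (with the array median, above 0 at 50 weeks for complexes I and II and at both ages for ATP synthase; under normexp correction, above 0 at 50 weeks for complex II), and the lowest complex IV points at 10 and 50 weeks are Cox7a1.

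Over the 3 ages together, with age as a term in limma's fit of 17858 genes, 0 of the 86 genes passed a Benjamini-Hochberg adjusted p of 0.05 in either direction (all genes: 0 higher, 0%, and 0 lower, 0%). In simulated data of this design 0% of 2-fold changes passed the adjusted threshold, and smaller changes were not simulated. The mean differences of the 86 genes, from -0.79 to 0.48, were all under 2-fold. A gene that did not pass is therefore not shown to be alike in both genotypes. At an unadjusted p under 0.05, 2 were higher (Cox4nb and Ndufs4, against 11% of all genes) and 2 lower (Atp5sl and Cox7a1, against 12.6%). Their adjusted p-values ran between 0.17 and 0.99 over the 86 genes. The direction was the same at all 3 ages for 5 genes that were higher (5.81%, against 27% of all genes) and 17 that were lower (19.8%, against 26.3%). The 3 null and the 3 wild-type values did not overlap for 4 genes that were higher, Cox4nb, Ndufaf4, Ndufs4 and Sdhd (13.1% of all genes), and 2 that were lower, Atp5sl and Ndufaf3 (11.1%). Without the 5-week pair 68 genes were lower at both remaining ages (36.4% of all genes), and at all 3 ages 53 were lower under quantile normalization (24% of all genes) but 4 with spike-in probes (24.4%).

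The direction at 10 weeks was lower in the null mouse under each of the 6 scalings tried, between -0.06 and -0.30. The authors' deposited table, which is among the 6, lay close to the main scaling. The medians of the other ages depended on the scaling: quantile normalization turned the 5-week median to -0.07, and scaling to the array median turned the 50-week median to 0.02. Brightness moved with genotype. The brightest 10% of all genes, 1597 genes, had medians of 0.27, 0.20 and 0.13 at 5, 10 and 50 weeks, all higher in the null mouse. The part of brightness in the chain genes' differences was not tested.

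**Figure D2:**
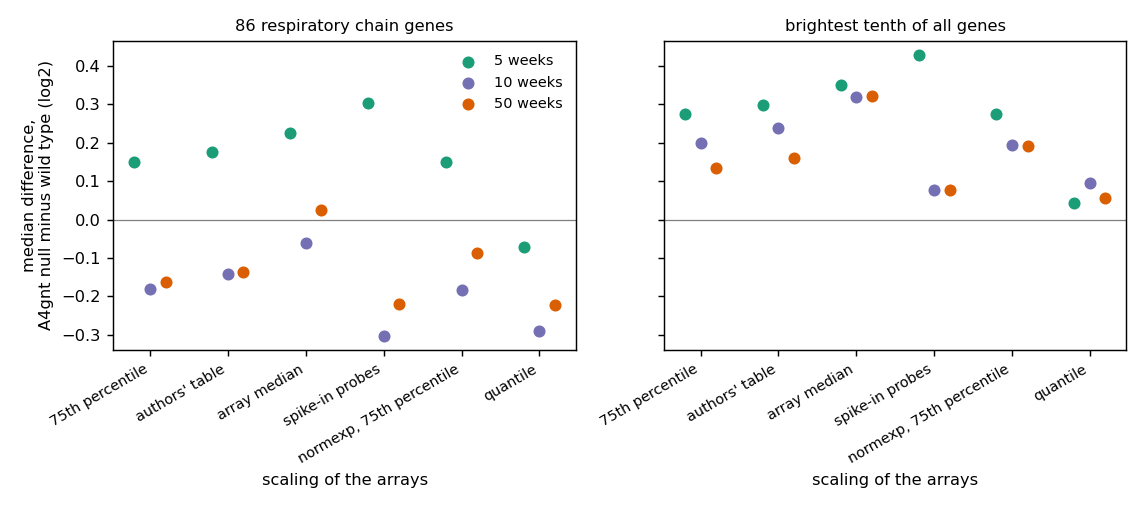
Median difference between the A4gnt-null and the wild-type mouse (log2, vertical axis) at each age (colour) under 6 ways of scaling the arrays (horizontal axis), for the 86 chain genes (left) and the brightest 10% of all genes (right). The 10-week median of the chain genes stays below 0 in all 6, while the bright genes as a whole stay above 0.

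Complex I, the NADH dehydrogenase, had median differences of 0.11 at 5 weeks, -0.16 at 10 weeks and -0.18 at 50 weeks over its 36 genes; quantile normalization turned the 5-week value to -0.12, and the array median turned the 50-week value to 0.01. Its 7 core subunits, which carry the flavin and iron-sulfur centres of the peripheral arm, had medians of -0.03, -0.30 and -0.30, although the 5-week value was 0.05 with the array median and 0.13 with spike-in probes. The 12 b and c subunits of the membrane arm had 0.22, -0.16 and -0.15, with all 12 higher in the null mouse at 5 weeks; the 5-week median was -0.02 under quantile normalization and the 50-week one 0.04 with the array median.

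Ndufs1, the largest core subunit, which holds iron-sulfur clusters of the peripheral arm (probe at chr1:63190360-63190419, mm9), stood at 4.19, 3.84 and 3.83 in the null mice of 5, 10 and 50 weeks, against 4.34, 4.27 and 4.16 in the wild-type mice. It was lower in the null mouse at each age, though the groups overlapped, and the mean difference was -0.31 ± 0.12 (SE, 3 mice per genotype; limma adjusted p = 0.23). Ndufv1, which binds NADH through flavin, differed by -0.03, -0.44 and -0.30, and Ndufs3 and Ndufs7, other core subunits, by means of -0.24 and -0.21 (adjusted p = 0.30 and 0.31). Spike-in scaling put the 5-week differences of Ndufs1 and Ndufs3 just above 0, and it and the array median did so for Ndufv1.

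Ndufs4 went the other way. This accessory subunit, needed for a stable and active complex I and a Leigh syndrome gene in humans (probe at chr13:115078980-115079039, mm9), stood at 5.03, 4.67 and 4.64 in null mucosa of 5, 10 and 50 weeks, against 4.39, 4.27 and 4.34 in wild-type mucosa. Every null value was above every wild-type value. The mean was 4.78 ± 0.22 in null mice and 4.33 ± 0.06 in wild-type mice (SD, n = 3 each), a 1.37-fold difference that did not pass (0.45 ± 0.13, SE; limma adjusted p = 0.18). Its difference was 0.65 at 5 weeks, 0.40 at 10 weeks and 0.30 at 50 weeks, and its mean was between 0.35 and 0.58 over the alternatives tried. The accessory subunits Ndufb4 and Ndufb6 had large 5-week differences, 0.60 and 0.61, which were -0.19 and -0.07 at 10 weeks and -0.15 and -0.05 at 50 weeks.

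Complex II, succinate dehydrogenase, links the citrate cycle to the chain. Its 4 genes did not move as one. The flavoprotein gene Sdha differed by -0.05, -0.40 and -0.04 at 5, 10 and 50 weeks, the iron-sulfur subunit gene Sdhb by 0.10, -0.39 and -0.28, and the membrane anchor gene Sdhc by 0.07, -0.31 and -0.10. A somewhat dimmer probe of Sdhc gave -0.36, -0.09 and -0.29. The 10-week sign of these 3 genes held under all 6 scalings, while other ages turned for each: at 5 weeks under quantile normalization for Sdhb and Sdhc and with the array median and spike-in probes for Sdha, and at 50 weeks with the array median for Sdha and Sdhc and also under normexp background correction for Sdha. The other membrane anchor, Sdhd (probe at chr9:50404630-50404689, mm9), stood at 5.77, 5.42 and 5.45 in null mice, against 5.29, 5.00 and 5.38 in wild-type mice. Null and wild-type values of Sdhd did not overlap, but the gap at 50 weeks was 0.07 and became -0.03 under quantile normalization. Its mean difference was 0.32 ± 0.14 (SE; limma adjusted p = 0.25).

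In complex III, the cytochrome bc1 complex, all 7 genes were higher in the null mouse at 5 weeks and lower at 10 and at 50 weeks, but not under every scaling. The medians were 0.15, -0.17 and -0.19, and the 5-week median was -0.06 under quantile normalization. The Rieske iron-sulfur protein gene Uqcrfs1 stood at 5.25, 4.61 and 4.48 in null mice, against 5.10, 5.08 and 4.76 in wild-type mice. The 10- and 50-week null mice had the lowest levels of the 6, and quantile normalization put the 5-week difference of Uqcrfs1 at -0.02. The core protein genes Uqcrc1 and Uqcrc2 differed less, by 0.06 and 0.15 at 5 weeks, -0.16 and -0.10 at 10 weeks, and -0.07 each at 50 weeks; quantile normalization put their 5-week differences below 0, and the array median put both 50-week differences and the 10-week one of Uqcrc2 above 0. The hinge protein gene Uqcrh differed by 0.49 at 5 weeks and by -0.07 and -0.03 later, values that the array median turned to 0.05 and 0.15. The mean differences of the 7 genes lay between -0.20 and 0.13, with adjusted p between 0.50 and 0.97 (limma).

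Complex IV, cytochrome c oxidase, had medians of 0.13, -0.23 and -0.26 over 15 genes, the 5-week value becoming -0.07 under quantile normalization. Several of its nuclear subunits come as isoforms used in different tissues. The 11 ubiquitous subunits had medians of 0.23, -0.29 and -0.26, with all 11 higher in the null mouse at 5 weeks (quantile normalization gave a median of -0.05) and all 11 lower at 10 weeks. Cox4i1, the ubiquitous subunit IV (probe at chr8:123197924-123197983, mm9), stood at 7.96, 7.02 and 6.97 in null mice, against 7.74, 7.31 and 7.30 in wild-type mice. The null mouse had the highest level at 5 weeks and the lowest at 10 and 50 weeks, and quantile normalization put the 5-week difference of Cox4i1 at -0.05. Cox6c, a small subunit of the same kind, stood at 7.73, 6.74 and 6.64 in null mice, against 7.38, 7.34 and 6.99 in wild-type mice, and was 1.51-fold lower in the null mouse at 10 weeks. Ndufa4, named for complex I and now placed in complex IV, differed by 0.13, -0.38 and -0.25.

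Cox7a1 differed most of the chain subunits. It encodes the heart and skeletal muscle isoform of subunit VIIa (probe at chr7:30970337-30970948, mm9) and is also known from brown fat. It stood at 6.17, 4.54 and 4.16 in null mice of 5, 10 and 50 weeks, against 6.27, 5.70 and 5.26 in wild-type mice. The 5-week mice were nearly level, while the 10- and 50-week null mice were below all 3 wild-type mice, by 2.23-fold and 2.14-fold against the wild-type mouse of the same age. The mean was 4.96 ± 1.07 in null mice and 5.74 ± 0.51 in wild-type mice (SD, n = 3 each), and the difference of -0.79 ± 0.26 (SE) did not pass (limma adjusted p = 0.19); with spike-in probes the 5-week difference was 0.05. Over the alternatives the mean difference of Cox7a1 ran between -1.13 and -0.60, with limma adjusted p between 0.11 and 0.49. Its ubiquitous counterpart Cox7a2 stood at 6.73, 6.07 and 6.05 in null mice, against 6.44, 6.30 and 6.25 in wild-type mice, a mean difference of -0.05 ± 0.16 (SE; adjusted p = 0.87).

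The other muscle isoforms were dim. Cox6a2 was well above background on 0 of 6 arrays, and the testis isoforms Cox7b2 and Cox8c likewise. Cox8b, a muscle and brown fat isoform, was above background on 1 of 3 null and 2 of 3 wild-type arrays; the 5-week null level was at least 1.45-fold higher than the wild-type one, while at the later ages it was lower, by at least 1.37-fold (10 weeks) and by at least 3.98-fold (50 weeks). Of 6 striated muscle markers, 4 were above background on 0 arrays and 0 on all arrays. Smooth muscle markers differed by a median of 2.01 at 5 weeks, 0.51 at 10 weeks and -2.46 at 50 weeks. The part of muscle in the Cox7a1 difference was not tested. The remaining isoforms, Cox4i2 of lung and Cox6b2 of testis, differed by means of -0.21 and 0.11 (limma adjusted p = 0.38 and 0.66).

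**Figure D3:**
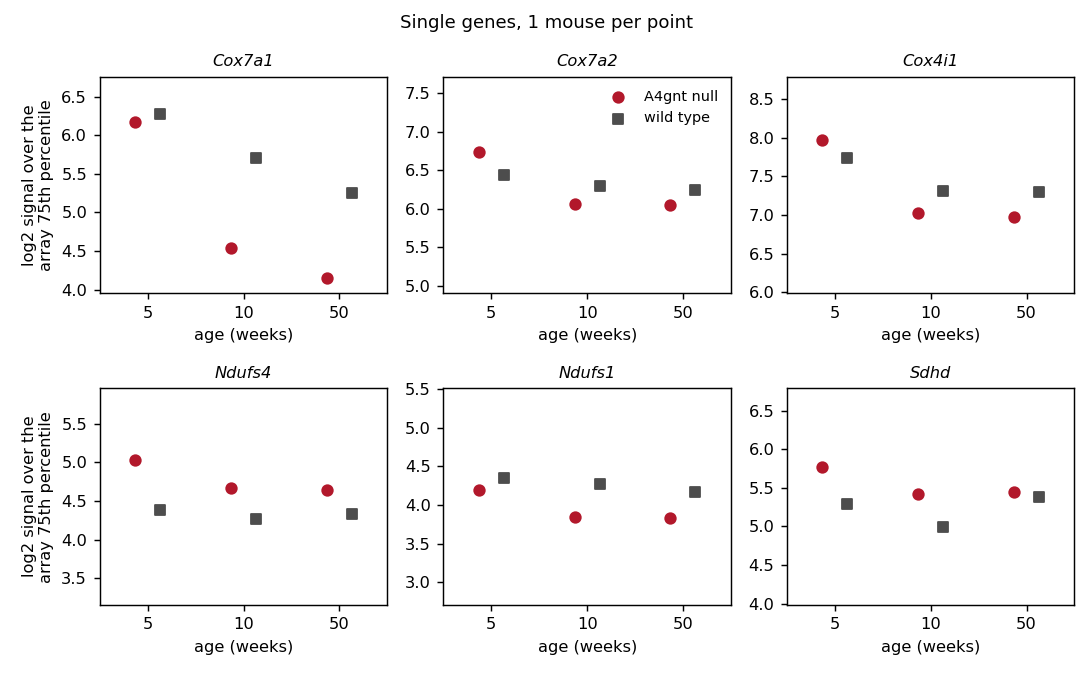
Log2 signal over the array's 75th percentile (vertical axes, each spanning the same range) against age in weeks for 6 genes; red circles are A4gnt-null mice and grey squares wild-type mice, 1 mouse per point. Cox7a1 separates at 10 and 50 weeks, Cox7a2 and Cox4i1 much less, Ndufs4 lies higher and Ndufs1 lower in the null mouse at each age (level at 5 weeks with spike-in probes).

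ATP synthase had the highest 5-week median of the complexes, 0.24 over 14 genes with 13 higher in the null mouse, and medians of -0.10 at both later ages; quantile normalization gave -0.09 at 5 weeks, and the array median 0.02 and 0.09 at 10 and 50 weeks. The catalytic subunit gene Atp5b stood at 7.98, 7.58 and 7.62 in null mice, against 7.95, 7.91 and 7.84 in wild-type mice. Its 10- and 50-week null levels were the lowest of the 6, its 5-week difference was -0.26 under quantile normalization, and its mean difference was -0.17 ± 0.13 (SE; limma adjusted p = 0.45). Atp5e, the epsilon subunit of the F1 stalk, stood at 8.15, 7.07 and 7.23 in null mice, against 7.44, 7.13 and 7.28 in wild-type mice. It was 1.64-fold higher in the null mouse at 5 weeks, with a difference of -0.06 at 10 and 50 weeks (0.06 and 0.13 with the array median). Atp5g2, a gene for the proton-carrying c ring, was higher in the null mouse at all ages, by 0.14, 0.29 and 0.11, but by -0.21 at 5 weeks and -0.01 at 50 weeks under quantile normalization; its other probe gave 0.21, 0.47 and 0.24. Atp5h, of the peripheral stalk, had the lowest mean of the complex, -0.23 ± 0.15 (SE; adjusted p = 0.41).

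Of the 7 assembly factors, 1 was higher at all 3 ages and 3 lower (27% and 26.3% of all genes). Ndufaf4, needed for building complex I, stood at 1.87, 2.11 and 1.94 in null mice, against 1.61, 1.83 and 1.64 in wild-type mice. Every null value was above every wild-type value (mean difference 0.28 ± 0.11, SE; limma adjusted p = 0.23), but a dimmer probe of the gene gave 0.32, -0.29 and -0.01. Ndufaf3, of the same assembly step, differed by -0.14, -0.23 and -0.21. Atp5sl, whose current symbol is Dmac2 and whose product helps assemble the membrane arm of complex I, stood at 2.39, 2.07 and 2.21 in null mice, against 2.78, 2.80 and 2.46 in wild-type mice. All 3 null values were below all 3 wild-type values (mean difference -0.46 ± 0.15, SE; adjusted p = 0.19). A list of 24 assembly factors of other names had medians of 0.04, -0.08 and -0.11, with the 10- and 50-week values being 0.04 and 0.07 with the array median. Its members Ttc19, of complex III, and Cox17, a copper chaperone of complex IV, had mean differences of -0.66 and -0.63. A further 7 assembly factors, which the array gives under names outside the rule and which were added after their values could be seen, had medians of 0.29, 0.12 and 0.05, with 5 of 7 higher in the null mice on the mean of the 3 ages; spike-in scaling put the 10- and 50-week medians just below 0, and normexp the 50-week one.

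Among the 3 others, names and functions differ. Cox4nb, the neighbour of Cox4i1, is now Emc8 and encodes a subunit of the membrane protein insertion complex of the endoplasmic reticulum, not of the chain. It stood at 0.63, 0.77 and 0.76 in null mice, against 0.08, 0.20 and 0.44 in wild-type mice, with no overlap (mean difference 0.48 ± 0.12, SE; limma adjusted p = 0.17). Atp5s, now Dmac2l, differed by -0.17, -0.24 and -0.34. Ndufa4l2, a paralog of Ndufa4, had differences of 0.57, -0.66 and -1.33. It was dim, with processed signals of 18.6, 21.7 and 19.2 units in null mice and 12.8, 37.5 and 34.6 in wild-type mice. The lowest signal called above background was 10.1 to 11.6 units, depending on the array. Leaving these 3 and the assembly factors out, the 76 subunits had medians of 0.15, -0.18 and -0.17, the first becoming -0.09 under quantile normalization and the last 0.01 with the array median.

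The subunits encoded on mitochondrial DNA, outside the naming rule but parts of the same complexes, differed with the same signs at each age, with larger medians. Over the 12 genes on the array the medians were 0.31 at 5 weeks, -0.58 at 10 weeks and -0.67 at 50 weeks, and each kept its sign under all 6 scalings (0.19 to 0.46, -0.46 to -0.73 and -0.48 to -0.73). At 5 weeks 11 were higher in the null mouse, and at 10 and at 50 weeks 11 were lower. ND4, a proton-pumping subunit of complex I, differed by 0.62, -1.16 and -0.95, and CYTB, the heme subunit of complex III, by 0.37, -0.86 and -0.83. COX1, the catalytic subunit of complex IV, differed by 0.24, -0.45 and -0.67.

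The gene that went the other way was ND6, which is transcribed from the opposite strand of mitochondrial DNA to the other protein genes. Its level was 0.49, 0.64 and 0.78 in null mice, against 0.61, 0.22 and 0.67 in wild-type mice, so that it differed by -0.12, 0.43 and 0.11; spike-in scaling put the 5-week value at 0.04. No gene of this list passed (limma adjusted p between 0.29 and 0.68).

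**Figure D4:**
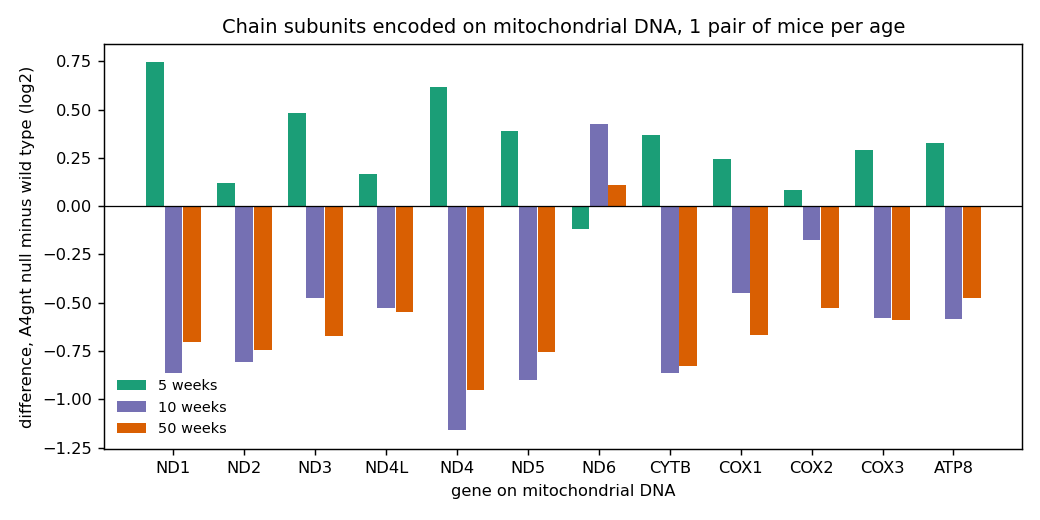
Difference between the A4gnt-null and the wild-type mouse (log2, vertical axis) at each age (colour) for the 12 chain genes on mitochondrial DNA (horizontal axis); each bar is 1 mouse against 1 mouse. All but ND6 are above 0 at 5 weeks and below 0 at 10 and 50 weeks, though under quantile normalization ND2, ND4L and ATP8 are below 0 at 5 weeks.

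Markers of several cell types differed between genotypes beside the chain genes. All 10 parietal markers above background on all arrays were lower in the null mouse at every age, with medians of -0.51, -1.42 and -1.21, and 10 had an unadjusted p under 0.05 in limma, with adjusted p between 0.10 and 0.18. Their summed signal, in units of each array's 75th percentile, was 653.7, 326.8 and 231.4 in null mice, against 805.7, 722.9 and 519.0 in wild-type mice. At 5 weeks the parietal markers were lower and the chain genes higher in the null mouse, though quantile normalization put the chain genes' median at -0.07. Markers of dividing cells were higher at every age (1.32, 2.22 and 0.55), as were markers of gland mucous cells (1.61, 1.57 and 0.84) and of fibroblasts (0.60, 0.75 and 0.66). Enteroendocrine markers (6 genes) had medians of 0.06, -1.17 and -0.87, the first being -0.05 under quantile normalization, and liver markers (3 genes) 0.51, -1.66 and -1.29, signs in the order of those of the chain genes. Pancreas markers (2 genes) had -1.91, -0.76 and -4.27. The part of cell makeup in the chain genes' differences was not tested.

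**Figure D5:**
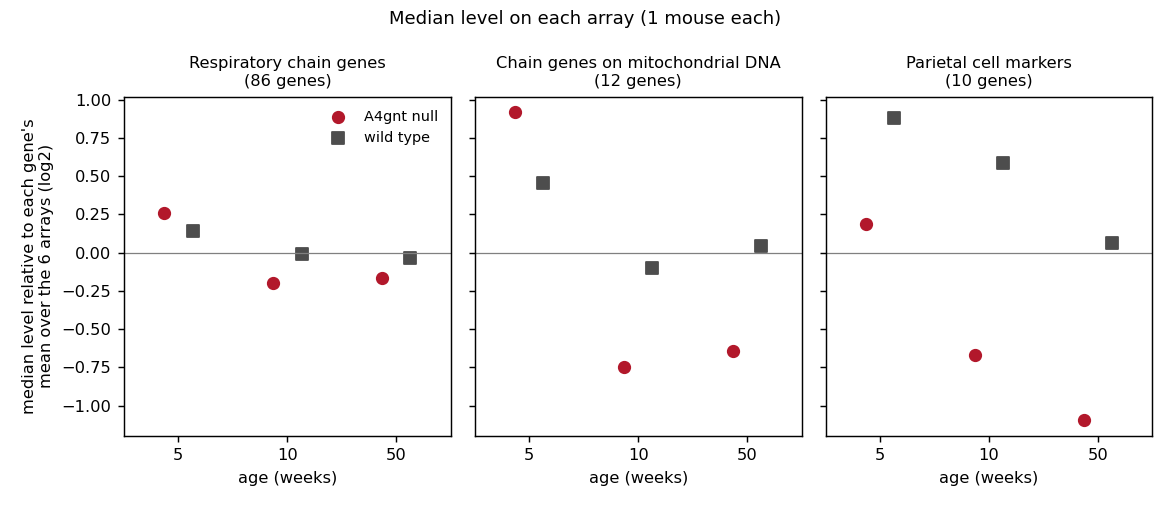
Median level on each array relative to each gene's mean over the 6 arrays (log2, vertical axis) against age in weeks, for the 86 chain genes, the 12 chain genes on mitochondrial DNA and 10 parietal markers; red circles are A4gnt-null mice and grey squares wild-type mice, 1 mouse per point. The null mouse lies above the wild type at 5 weeks in the first and second panels and below it at every age in the third; quantile normalization turns the 5-week order of the chain genes.

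Other mitochondrial pathways did not all follow the chain. The citrate cycle and pyruvate dehydrogenase list (17 genes) had medians of 0.08, -0.30 and -0.23, the first being -0.11 under quantile normalization; Ogdh, of the 2-oxoglutarate dehydrogenase complex, differed by a mean of -0.53 ± 0.12 (SE; limma adjusted p = 0.15), while Idh3a, of isocitrate dehydrogenase, was higher by 0.35 ± 0.11. Fatty acid oxidation (14 genes) was lower at every age, with medians of -0.27, -0.36 and -0.34 and 10 of 14 genes lower at all 3 ages (26.3% of all genes). Eci1, an enoyl-CoA isomerase, differed by -0.43, -0.98 and -0.84 (mean -0.75 ± 0.16, SE; adjusted p = 0.14). The mitochondrial ribosome (74 genes) had medians of 0.26, 0.18 and 0.09, with 39 genes higher and 3 lower at all ages (27% and 26.3% of all genes), and the import machinery (20 genes) 0.25, 0.18 and 0.12, with 14 higher and 0 lower. No gene of these lists passed the adjusted threshold in limma; at an unadjusted p under 0.05 there were 6 of 14 lower for fatty acid oxidation (12.6% of all genes) and 6 of 74 higher for the ribosome (11% of all genes), the ribosome's share being below that of all genes.

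Among 15 regulators of mitochondrial genes the medians lay near 0, but single members differed widely. Esrrg, an estrogen-related receptor, differed by -0.02, -1.80 and -1.26, and Esrrb, its relative, by -0.57, -2.40 and -1.90 (mean -1.62 ± 0.40, SE; limma adjusted p = 0.16). Perm1, a muscle-enriched regulator that acts with these receptors, differed by -0.77, -1.26 and -1.99 (mean -1.34 ± 0.27, SE; adjusted p = 0.14). The coactivator gene Ppargc1a was higher in the null mouse at 5 weeks, by 1.1, and lower at 10 and 50 weeks, by -0.70 and -0.51. The 5-week value of Esrrg was just above 0 with the array median, spike-in probes, normexp and the authors' deposited table. Nrf1, Gabpa, Yy1 and Tfam, which binds mitochondrial DNA, had means of 0.25, 0.12, 0.19 and 0.17. Esrra, another receptor of that family, had a mean of 0.06 ± 0.12 (SE; adjusted p = 0.78).

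Age was compared across both genotypes, with 1 null and 1 wild-type mouse per age and genotype as a term. Relative to 5 weeks, 77 of the 86 genes were lower at 10 weeks (59.6% of all genes lower, 40.4% higher), with a median of -0.31, and 78 were lower at 50 weeks (53.6% lower, 46.4% higher), with a median of -0.29. Between 50 and 10 weeks 45 were lower (44.2% lower, 55.8% higher), with a median of -0.01. Markers of cell types also differed with age: at 10 against 5 weeks all 10 parietal markers were lower (median -0.69), both pancreas markers were lower (-4.75), and smooth muscle markers were higher (1.6). At 50 against 5 weeks these medians were -1.05, -3.68 and 1.08. Their part in the chain genes' differences with age was not tested. None of the 86 genes passed limma's adjusted threshold in any of these comparisons (all genes: 2 higher at 10 against 5 weeks, 0.0112%, 2 higher at 50 against 5 weeks, 0.0112%, and 0 in each other direction, 0%). At an unadjusted p under 0.05, 6 genes were lower at 10 than at 5 weeks (7.03% of all genes) and 0 higher (5.12%), 12 were lower at 50 than at 5 weeks (11.6%) and 1 higher (7.46%), and between 50 and 10 weeks 0 were lower (4.53%) and 0 higher (2.32%). Of the 86 genes Cox7a1 had the largest difference, -1.52 ± 0.32 at 50 against 5 weeks (SE; adjusted p = 0.22), and Cox4i1 had -0.71 ± 0.20 (adjusted p = 0.23). Within a genotype, the median at 10 against 5 weeks was -0.43 in the null mice and -0.13 in the wild-type mice. All these age differences are those of the main scaling. The wild-type arrays of 5 and 10 weeks had 75th percentiles of 256.8 and 357.1 units, but spike-in means of 11.46 and 11.57 in log2. Spike-in scaling therefore makes this wild-type median positive, and makes the median over both genotypes at 10 against 5 weeks smaller in size. A fit of the genotype difference on log2 age gave a negative slope for 78 of 86 genes (53.2% of all genes, against 46.8% with a positive one). Of these 0 passed (limma, with all genes 0 in each direction, 0%). At an unadjusted p under 0.05 in limma there was 1, the dim gene Ndufa4l2, against 1.36% of all genes in that direction, and 0 with a positive slope, against 1.47%.

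For 23 genes the array held several probes. The mean differences of a gene's probes spread by a median of 0.09, and 4 genes had probes of opposite sign. The spread was over 0.3 for Cox7c, whose dimmest probe (a mean of 82.9 units) gave a mean difference of 0.38 against -0.09 for the brightest. Uqcr10, Ndufb1, Atp5md and Atp5mpl, subunits that the array names outside the rule, were added to the lists after their values could be seen; they had a median of 0.45 at 5 weeks, 0.17 at 10 weeks and 0.04 at 50 weeks, the last turning to -0.06 under quantile normalization.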

How the data were processed

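RNA of 6 gastric mucosa samples, 1 mouse each, was labelled with Cy3 and hybridised to one-colour Agilent arrays. Per the file headers, Agilent Feature Extraction 10.7.1.1 gave each spot a background-subtracted processed intensity, not scaled between arrays. That intensity was the value used here. The authors' deposited table holds log2 values of the same arrays; each column differs from the log2 processed signals of its array by 1 constant, between -8.54 and -7.88, within 0.001 for 100% of 39399 probes, and its column medians lie between -3.89 and -3.56. Its column 75th percentiles lie between -0.00072 and -0.0002, so each column is centred near its own 75th percentile, much as in the main scaling. It served as an alternative close to the main scaling, with medians for the 86 genes of 0.17, -0.14 and -0.14 at 5, 10 and 50 weeks.

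Control and outlier spots were left out, spots of a probe averaged, log2 taken, and each array's log2 75th percentile subtracted. Each gene was read from its brightest probe. Genes above background on at least 3 arrays were fitted in limma 3.58.1 (R 4.3.3, with summaries in Python 3.11.15). The fit had genotype and age terms and Benjamini-Hochberg adjustment. It was run on simulated 2-fold and 4-fold changes, of which 0% and 70.85% passed the adjusted threshold. Changes under 2-fold were not simulated. Null and wild-type mice are paired by the age in the labels. Symbols were updated through RefSeq (GRCm38.p6), while probe positions are those of the files (mm9). Columns of other samples left unused numbered 0.

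The single genes named were members past the threshold, then 8 per direction with the largest statistic among those of one direction at all ages, the extremes of each complex and list, and a fixed set of core subunits, tissue isoforms and regulators. Ndufaf3, Ndufb4, Ndufb6, Cox7c, COX1, ND6 and Yy1 were named after their values were seen. The members, lists and tests were chosen with earlier results of these data known. Alternatives were quantile, array-median and spike-in scaling, normexp background correction (offset 50), the deposited table, no age term, a variance trend, other filters on dim probes and leaving out each age pair.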

Additional observations from a re-analysis of the deposited data

Results flagged for a closer look

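The difference between the A4gnt-null and the wild-type mouse had one sign at 5 weeks and the other at 10 and 50 weeks. The median at 5 weeks was 0.15 over all 86 genes, 0.11 for complex I, 0.082 for complex II, 0.15 for complex III, 0.13 for complex IV, 0.24 for ATP synthase and 0.14 for the assembly factors. In each of these the medians at 10 and 50 weeks were below 0. Quantile normalization put the 5-week medians below 0 except that of the assembly factors, and the array median put the 50-week ones above 0 except those of complexes III and IV, and the 10-week one of ATP synthase too. Normexp correction put the 50-week median of complex II above 0. The difference between ages was not tested for these medians, each of which sets 1 mouse against 1 mouse.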

How the results depend on the processing

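For genotype, 0 of the 86 genes passed the adjusted threshold in each of the 13 alternatives run, and 49 single genes were followed through them. The direction of 21 was turned by at least 1 alternative, and the largest mean difference among those turned was 0.20. Quantile normalization put the mean differences below 0 for Atp5e (-0.011), Atp5g2 (-0.037), Atp5g3 (-0.099), Cox5a (-0.15), Cox7a2l (-0.10), Ndufb8 (-0.14) and Uqcrh (-0.077). It gave 53 genes lower and 3 higher at every age, a complex I median of -0.21, a complex III median of -0.30, a 5-week median of -0.072 and 1 gene of the array lower at an adjusted p under 0.05. Scaling to the array median moved the median over all genes of the mean difference to 0.11, and put above 0 Atp5a1 (0.078), Atp5c1 (0.12), Cox5b (0.062), Cox6b1 (0.029), Cox7a2 (0.080), Cox7b (0.026), Ndufa12 (0.096), Ndufb7 (0.076), Sdhaf1 (0.089), Sdhc (0.011), Uqcr (0.045), Uqcrc1 (0.067) and Uqcrc2 (0.12). It gave 9 genes lower and 26 higher at every age and a 50-week median of 0.025. Spike-in scaling gave 4 genes lower at every age. Normexp correction called 97 genes of the array higher and 92 lower and put Uqcrc2 at 0.010, and the authors' deposited table gave 8 genes higher at every age, Atp5c1 at 0.022 and Uqcrc2 at 0.022. With a variance trend 28 genes of the array were called higher and 13 lower. Without the age term, which pairs the mice and acts as the replicate block, 4 genes of the array were higher and 2 lower. Leaving out 1 age pair at a time gave 18 to 68 genes lower at every remaining age, 68 without the 5-week pair (36.4% of all genes), and 7 to 10 higher. The mean differences over these ran from -0.18 to 0.064 for Atp5a1, -0.13 to 0.060 for Atp5c1, -0.058 to 0.33 for Atp5e, -0.017 to 0.14 for Cox5a, -0.14 to 0.014 for Cox5b, -0.29 to 0.036 for Cox6b1, -0.018 to 0.23 for Cox6b2, -0.22 to 0.046 for Cox7a2, -0.016 to 0.10 for Cox7a2l, -0.32 to 0.028 for Cox7b, -0.097 to 0.041 for Ndufb7, -0.22 to 0.22 for Ndufb8, -0.13 to 0.023 for Sdhaf1, -0.088 to 0.041 for Uqcrc2 and -0.053 to 0.23 for Uqcrh. The causes were not tested. The slide could not be fitted as a block, because each slide holds 1 genotype. With 1 mouse per age and genotype, a difference at 1 age has no error of its own.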

Other observations

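Slc25a4, the ADP/ATP carrier isoform of heart and muscle, differed by -0.04, -0.97 and -0.59 between the A4gnt-null and the wild-type mouse at 5, 10 and 50 weeks, and Ldhb, a lactate dehydrogenase subunit, by -0.12, -1.46 and -1.20. Each was the lowest of its list at 10 and 50 weeks. The list of Slc25a4, inner membrane exchange (9 genes), had medians of -0.04, -0.05 and -0.09. That of Ldhb, glycolysis (15 genes), had -0.005, 0.18 and -0.03. With the array median all these list medians were positive. Chief cell markers differed by medians of -0.32, -0.99 and -1.25.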
